A study of Drosophila melanogaster with 4 samples.

Results

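The trypsin genes of the Drosophila melanogaster midgut described here are alphaTry, betaTry, gammaTry, deltaTry, epsilonTry, zetaTry, etaTry, thetaTry, iotaTry and lambdaTry, chosen by name. All 10 were found among the 17510 genes of the count table, and 9 of them had enough reads to be tested. RNA was sequenced from adult intestines of flies with RNAi against CG5789, from a transgenic line of the National Institute of Genetics collection in Japan, and of wild-type flies, with 2 libraries per genotype. In both genotypes the Malpighian tubules and the crop had been taken off. The driver of the RNAi, the sex and age of the flies and the number of guts per library are not stated in the sources used here, and no library is described as carrying the driver or an unrelated transgene alone. CG5789 is the fly gene now named Cftr, after the human chloride channel gene CFTR. The question was how expression in the gut differed with genotype, and libraries were numbered in the order of deposit.

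Trypsins are serine proteases that cut proteins after lysine or arginine. In the fly midgut they are made by enterocytes as inactive precursors, secreted into the lumen and activated by cleavage, so they serve the first step of protein digestion. The family has grown by gene duplication, and neighbouring copies can be close to identical in sequence, which limits how reads can be assigned among them.

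Cftr itself did not fall in every library labelled RNAi. It had 13.8 and 17.5 CPM (counts scaled to library size with TMM factors) in RNAi 1 and 2, against 13.8 and 43.3 CPM in wild type 1 and 2, so directions are given for libraries as labelled. Library totals lay between 11294882 counts in wild type 2 and 30537063 in wild type 1. The leading principal component of expression, with 52.6% of the variance, separated RNAi 1 and wild type 1 (set 1) from RNAi 2 and wild type 2 (set 2), and component 2, with 34.3%, separated the genotypes as labelled. The labels name no such batch, and the sets were read from earlier results of these counts. Midgut enterocyte markers (5 genes, summed level 2483 and 3001 CPM in RNAi libraries, 1837 and 2214 CPM in wild type) were present in every library. Npc1b had 283 and 513 CPM in RNAi libraries and 90.8 and 145 CPM in wild type. Npc2f had 887 and 748 CPM in RNAi libraries and 584 and 398 CPM in wild type. In mex1, Myo31DF and nub the genotypes overlapped. Visceral muscle markers (7 genes) summed to 690 and 1265 CPM in RNAi 1 and 2, against 948 and 1880 CPM in wild type 1 and 2. All 7 were lower with RNAi within both sets, as were 30.9% of all tested genes. With the set as a term edgeR called 3 of 7 lower, beside 3.65% of all tested genes. Malpighian tubule markers (6 genes) summed to 59.8 and 37.7 CPM in RNAi 1 and 2, against 104 and 38.8 CPM in wild type 1 and 2, with most of these reads on Alp4. The defining tubule gene Uro had 10 and 0 counts in RNAi libraries and 26 and 1 in wild type. Of the 4 haemocyte markers He was at 0 in all 4 libraries. NimC1 had 131 and 71 counts in RNAi libraries and 9 and 8 in wild type (edgeR adjusted p = 0.302, and 6.30e-05 with the set as a term, DESeq2 adjusted p = 0.00951). Hml, with too few reads to be tested, had 0.897 and 0.326 CPM in RNAi libraries and 0.277 and 0.269 CPM in wild type. Pxn had 1.70 and 1.83 CPM in RNAi libraries and 0.761 and 1.35 CPM in wild type (edgeR adjusted p = 0.448 with the set as a term). Of the testis markers Mst84Da was at 0 in all 4 libraries, and Mst98Ca had 11 counts and dj 7 in RNAi 1, with at most 1 in any other library. The part of these cell types in the results was not tested. In whole guts, fewer cells of a type and less RNA per cell cannot be told apart.

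The 10 genes lie side by side. In the BDGP6 annotation they fall on chromosome arm 2R between 11336840 and 11357537, a span of 20.7 kb that holds 14 annotated genes. The order is lambdaTry, kappaTry, zetaTry, etaTry, thetaTry, alphaTry, epsilonTry, betaTry, gammaTry, CG30031, CG30025, deltaTry and iotaTry, with CG13202 between the last pair. Each of the 10 is annotated with 1 exon and no intron. The minus strand carries 6 of them and the plus strand 4, which are lambdaTry, betaTry, deltaTry and iotaTry. Exonic lengths run from 810 bases in gammaTry and deltaTry to 1071 bases in betaTry. The last 15 bases of deltaTry overlap CG13202 on the other strand, and the other members overlap no annotated gene.

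Expressed per transcript length, the family spanned a wide range and was led by a single gene. alphaTry had 34333 and 31142 TPM (counts divided by exonic length and scaled to 1 fixed total per library) in RNAi 1 and 2, against 43914 and 41571 TPM in wild type 1 and 2. betaTry came next with 9486 and 9137 TPM in RNAi libraries and 8899 and 9787 TPM in wild type, below alphaTry in every library. thetaTry and epsilonTry shared the third place: thetaTry was above epsilonTry in 2 of 4 libraries and their ranges overlapped, with means over the 4 libraries of 2480 and 2460 TPM. lambdaTry had a mean of 1459 TPM and lay below both in every library. etaTry and iotaTry followed, at 618 and 590 TPM, with etaTry the higher in both RNAi libraries (716 and 617 TPM, against 580 and 493 TPM of iotaTry) and iotaTry the higher in both wild-type libraries (727 and 559 TPM, against 605 and 532 TPM of etaTry). That order was read from the values and was not tested. zetaTry had a mean of 313 TPM and lay below iotaTry in every library. deltaTry was between 0.880 and 17.5 TPM, and gammaTry did not exceed 0.144 TPM.

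**Figure D1:**
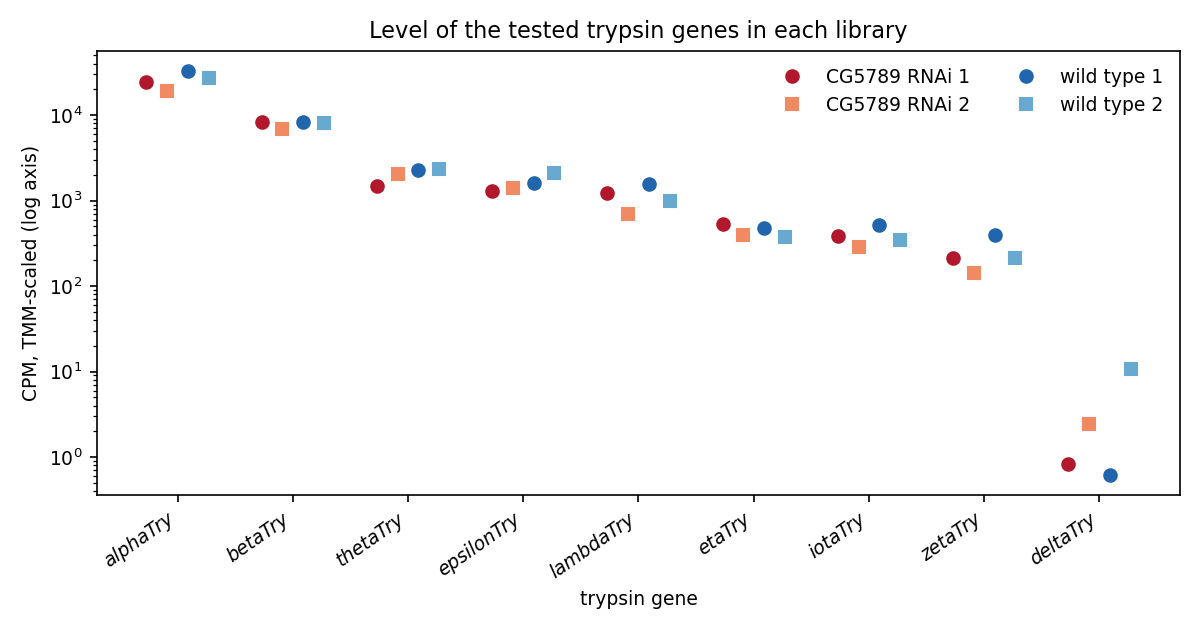
Level of each tested trypsin gene in the 4 libraries, in TMM-scaled CPM on a log axis, with genes ordered by their mean TPM. alphaTry was the highest gene in every library, betaTry lay next to it, and deltaTry was at or under 10.9 CPM.

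alphaTry was among the most abundant transcripts of the whole table. It ranked 2 and 4 by count in RNAi 1 and 2, and 1 and 4 in wild type 1 and 2, and took 2.50% and 1.97% of all counts in RNAi libraries, against 3.12% and 2.71% in wild type. betaTry ranked between 10 and 16 in the 4 libraries. Summed over the 10 genes, trypsins took 3.89% of all counts in RNAi 1 (95% exact binomial interval 3.88 to 3.89) and 3.20% in RNAi 2 (3.20 to 3.21), against 4.56% in wild type 1 (4.55 to 4.57) and 4.13% in wild type 2 (4.12 to 4.14). Both RNAi libraries thus lay below both wild-type libraries. The difference of the means was -0.80 percentage points, from 3.54% ± 0.48 in RNAi and 4.34% ± 0.30 in wild type (SD, n = 2 each), and the two-sided exact permutation test gave p = 0.333, the smallest that 2 against 2 can give. The intervals cover counting error only. The labels do not say whether replicate libraries came from different groups of flies, and p-values here reflect the spread among libraries alone, which may be technical.

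**Figure D2:**
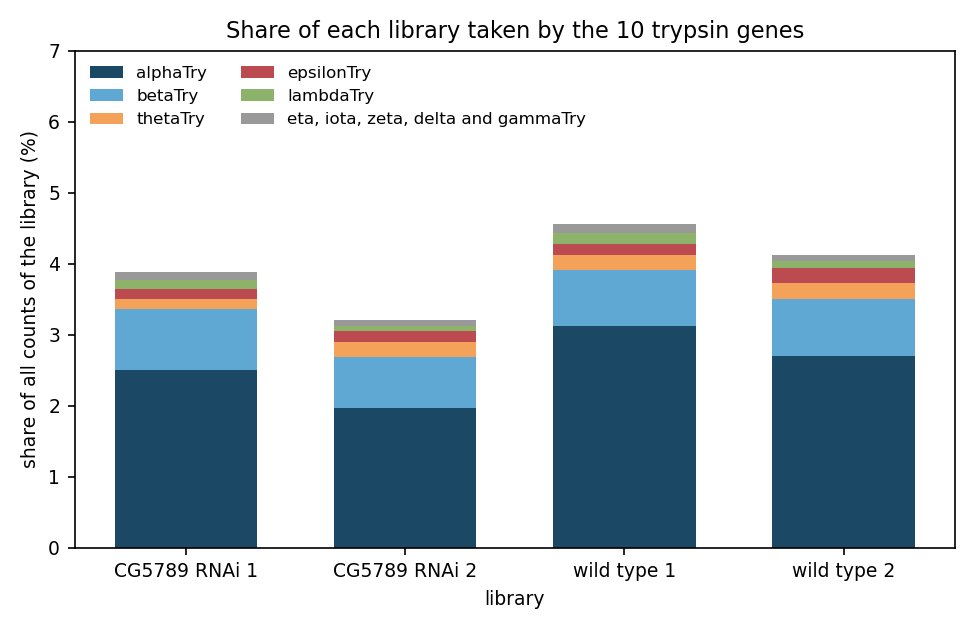
Share of all counts of each library taken by the 10 trypsin genes, in percent, stacked by gene. The stacks reach 3.89% and 3.20% with RNAi and 4.56% and 4.13% in wild type, and alphaTry makes up most of each.

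No trypsin gene passed the test between genotypes when the library set was left out of the model. With edgeR's quasi-likelihood test and Benjamini-Hochberg adjustment over 9637 genes, 0 of 9 tested members had an adjusted p under 0.05, against 0.125% of all genes tested. At an unadjusted p under 0.05 there were 0 of 9 members and 3.83% of all genes. DESeq2 called 0 members as well, where it called 0.955% of all genes, with deltaTry at an unadjusted p of 0.0495. The fitted log2 fold change, RNAi over wild type, was negative for 8 of the 9, which 49.3% of all tested genes were too. The members' median was -0.40, beside 0.0065 over all genes tested and -0.044 over the 2278 genes that averaged 50 CPM or more. The 9 genes are neighbours and partly share sequence, so they are not independent of each other.

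alphaTry, the dominant trypsin, had 24202 and 18978 CPM in RNAi 1 and 2, against 32961 and 27408 CPM in wild type 1 and 2. The genotypes did not overlap. The log2 fold change was -0.48 (SE 0.37, 95% interval -1.34 to 0.38) and the edgeR adjusted p was 1.0. The interval includes both 0 and a 2-fold lower level.

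betaTry, the second trypsin and a widely used enterocyte marker in the fly gut, had 8328 and 6934 CPM with RNAi, against 8319 and 8036 CPM in wild type. RNAi 1 matched wild type 1, and RNAi 2 was the lowest of the 4. The log2 fold change was -0.10 (SE 0.37, 95% interval -0.96 to 0.76). Reads of alphaTry and betaTry may be split between the pair, and their summed level was 32530 and 25913 CPM in RNAi 1 and 2, against 41279 and 35444 CPM in wild type 1 and 2, with a log2 fold change of -0.39 when fitted as 1 row.

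epsilonTry and thetaTry, the neighbours of alphaTry on either side, also had both RNAi libraries below both wild-type ones. epsilonTry had 1280 and 1418 CPM in RNAi libraries and 1629 and 2100 CPM in wild type, and thetaTry had 1474 and 2062 CPM in RNAi libraries and 2290 and 2343 CPM in wild type. Their log2 fold changes were -0.47 (SE 0.38) and -0.39 (SE 0.39), with -0.26 for epsilonTry without wild type 2 and -0.17 for thetaTry without RNAi 1. With alphaTry, these were 3 of 9 tested members whose RNAi libraries both lay below both wild-type libraries, an arrangement that 12.2% of all tested genes showed. No member was higher in both RNAi libraries than in both wild-type libraries, an arrangement that 12.0% of all tested genes showed.

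lambdaTry, iotaTry and zetaTry had overlapping genotypes and differed at least as much between the library sets. lambdaTry had 1231 and 693 CPM in RNAi 1 and 2, against 1546 and 999 CPM in wild type 1 and 2. iotaTry had 389 and 285 CPM with RNAi, against 519 and 351 CPM in wild type. In both genes wild type 1 was the highest library and RNAi 2 the lowest. The log2 fold changes were -0.40 (SE 0.46) for lambdaTry and -0.37 (SE 0.42) for iotaTry. Without wild type 1 they were -0.081 and -0.080, and lambdaTry was -0.087 without RNAi 2 and -0.88 without RNAi 1.

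zetaTry had the most negative fitted value among the members with a mean of at least 50 CPM. Its level was 213 and 141 CPM in RNAi 1 and 2, against 395 and 212 CPM in wild type 1 and 2. RNAi 1 and wild type 2 were at nearly the same level, so the genotypes overlapped. The log2 fold change was -0.78 (SE 0.47, 95% interval -1.87 to 0.32; edgeR adjusted p = 1.0), and it was -0.28 without wild type 1. etaTry was the one member with a positive value, at 535 and 398 CPM in RNAi libraries and 481 and 372 CPM in wild type, with a log2 fold change of 0.13 (SE 0.40). That sign did not hold without RNAi 1 (-0.098) or without wild type 2 (-0.038).

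**Figure D3:**
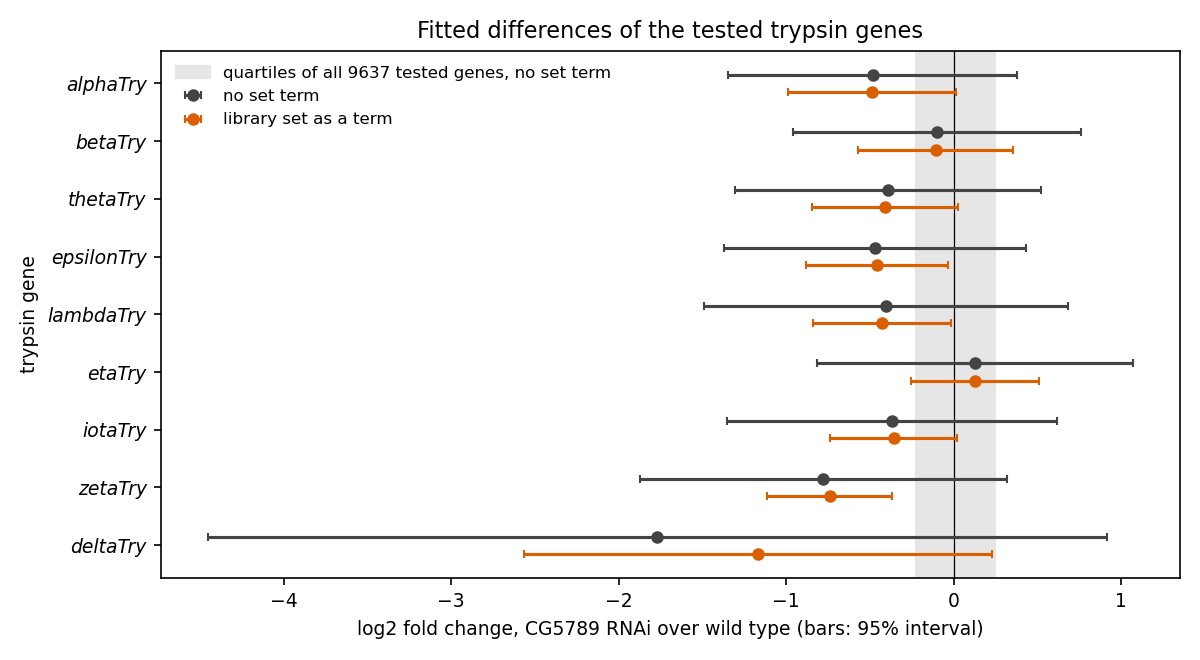
Fitted log2 fold change of each tested trypsin gene, RNAi over wild type, with 95% intervals, without a set term and with the library set as a term; the grey band runs between the quartiles of all tested genes. Without the set term every interval includes 0, and with it the interval of zetaTry, the one member called, runs from -1.11 to -0.37. The intervals of epsilonTry (-0.88 to -0.034) and lambdaTry (-0.84 to -0.016) also exclude 0 with the set term, but neither gene was called after adjustment.

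With the library set in the model, zetaTry was lower in the RNAi libraries. In that fit its log2 fold change was -0.74 (SE 0.18; edgeR adjusted p = 0.00667), and RNAi was lower within both sets, at 0.539 times wild type in set 1 (95% exact interval 0.523 to 0.556) and 0.667 times in set 2 (0.633 to 0.703). DESeq2 with the set term gave an adjusted p of 0.00730 and called 4.24% of all genes. It was the only one of the 9 tested members that passed, where 3.65% of all tested genes were lower and 7.1% passed in either direction, so 1 of 9 is close to that background. alphaTry had an adjusted p of 0.299, epsilonTry 0.229 and lambdaTry 0.256 in that edgeR fit, with 3 of 9 members, and 17.7% of all genes, at an unadjusted p under 0.05. DESeq2 with the set term had 5 of 9 members at an unadjusted p under 0.05, and the share over all genes is not given here. Both set-term fits kept 1 residual degree of freedom and used sets found in the counts being tested, which can make their p-values too small. The tubule marker sum was highest in wild type 1. That library was also the highest for zetaTry, alphaTry, iotaTry and lambdaTry, but not for the other tested members. The part of the tubule in the result was not tested.

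In 6 of 9 tested members (alphaTry, epsilonTry, zetaTry, thetaTry, iotaTry and lambdaTry) RNAi was below wild type in set 1 and in set 2, which held for 30.9% of all tested genes. etaTry was above wild type in both, with ratios of 1.11 and 1.07, which held for 30.5% of all tested genes. alphaTry was at 0.734 times wild type in set 1 and 0.692 in set 2, the closest pair of ratios among the 6 lower genes. thetaTry was at 0.643 and 0.880, and epsilonTry at 0.786 and 0.675. lambdaTry was at 0.796 and 0.693, and iotaTry at 0.749 and 0.814. deltaTry stood above wild type in set 1 and below it in set 2, at 1.34 and 0.225 times. betaTry was level with wild type in set 1, at 1.001 (95% exact interval 0.996 to 1.007), and at 0.863 (0.856 to 0.870) in set 2. Each set holds 1 library of a genotype, so these ratios have no replicate check.

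**Figure D4:**
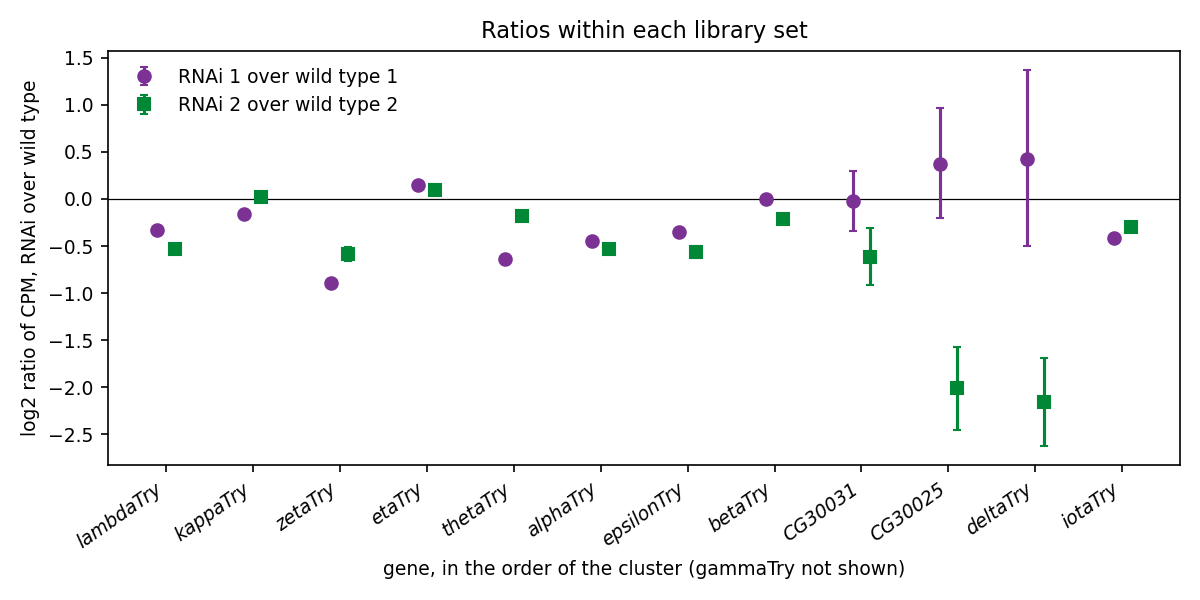
Log2 ratio of CPM, RNAi over wild type, within set 1 and within set 2, for genes of the cluster in their order along the chromosome; bars are exact 95% intervals for counting error. Most well-expressed genes lie between -0.89 and 0.15, while deltaTry and CG30025 are far lower in set 2 than in set 1.

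The set axis was as large as the genotype axis for part of the family. In 5 of 9 tested members (betaTry, zetaTry, etaTry, iotaTry and lambdaTry) both libraries of set 1 lay above both of set 2, an order that 31.0% of all tested genes had. The mean of set 1 exceeded that of set 2 by 0.79 on the log2 scale in zetaTry, 0.71 in lambdaTry, 0.51 in iotaTry, 0.40 in etaTry and 0.15 in betaTry. In deltaTry the order was reversed, as in 31.7% of all tested genes. kappaTry, the neighbour between lambdaTry and zetaTry, also had set 1 above set 2, with 1036 and 739 CPM in RNAi 1 and 2 and 1158 and 726 CPM in wild type 1 and 2. Its log2 fold change between genotypes was -0.086 (SE 0.43).

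The mix of trypsins within a library does not depend on the scaling. alphaTry made up 64.3% and 61.4% of all trypsin counts in RNAi 1 and 2, against 68.5% and 65.5% in wild type 1 and 2. betaTry made up 22.1% and 22.4% with RNAi, against 17.3% and 19.2% in wild type. The count ratio of alphaTry to betaTry was therefore 2.91 and 2.74 in RNAi libraries and 3.96 and 3.41 in wild type, without overlap. zetaTry relative to etaTry stood at 0.398 and 0.354 in RNAi libraries and 0.821 and 0.569 in wild type, also without overlap. Among the 28 pairs of the 8 members averaging 50 CPM or more (all but deltaTry and gammaTry), 8 pairs (28.6%) had genotypes that did not overlap. For ratios between any 2 of the 2278 genes averaging 50 CPM or more the share was 26.1%, close to that of the members.

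gammaTry and deltaTry carried almost no reads, as did their neighbours CG30025 and CG30031. These 4 genes lie together, have exonic lengths of 810 or 811 bases and coding lengths of 759 bases each, and are known as near-identical copies, so the assignment of their reads is uncertain. How reads that map to several places were counted is not stated in the sources used here. gammaTry had 1 and 0 counts in RNAi libraries and 1 and 1 in wild type, under the floor of 3 counts in each library, and was not tested. deltaTry had 26 and 60 counts in RNAi 1 and 2, against 18 and 121 in wild type 1 and 2. On the CPM scale that was 0.833 and 2.44 in RNAi libraries and 0.622 and 10.9 in wild type, so wild type 2 stood alone and the genotypes overlapped.

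**Figure D5:**
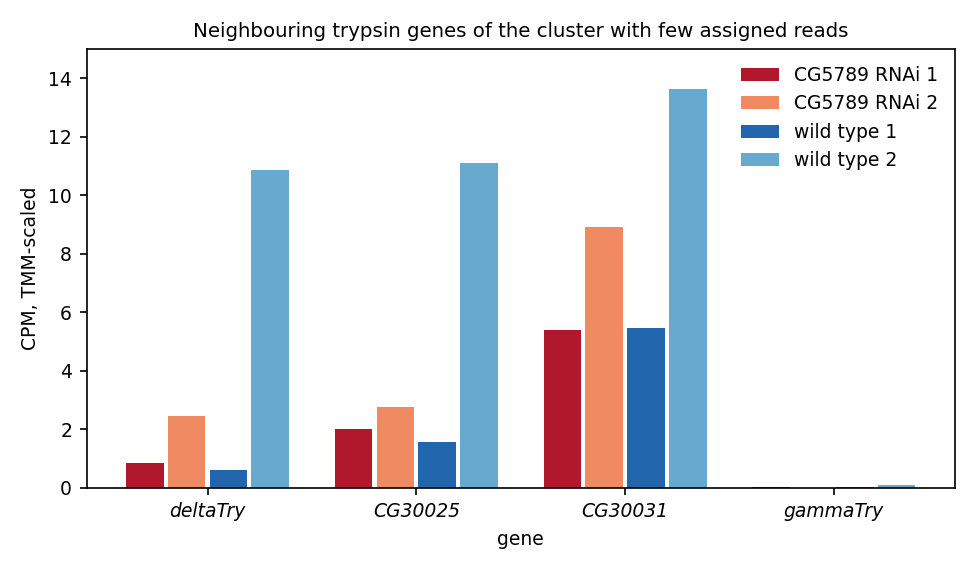
Level of deltaTry, CG30025, CG30031 and gammaTry in the 4 libraries, in TMM-scaled CPM on a linear axis from 0. Wild type 2 is the highest library for each of them, at 10.9, 11.1, 13.6 and 0.090 CPM, and gammaTry is close to 0 throughout.

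The value of deltaTry rested on wild type 2. Its log2 fold change was -1.77 (SE 1.14, 95% interval -4.45 to 0.92; edgeR adjusted p = 1.0). When wild type 1 was left out it was -2.75 (edgeR adjusted p = 0.00249), where 0.694% of all genes passed, and without wild type 2 it was 1.41. In set 1 RNAi 1 stood at 1.34 times wild type 1 (95% exact interval 0.706 to 2.59), and in set 2 RNAi 2 stood at 0.225 times wild type 2 (0.162 to 0.309). CG30025 had the same arrangement, with 2.02 and 2.77 CPM in RNAi libraries and 1.56 and 11.1 CPM in wild type, a log2 fold change of -1.37 (SE 0.82), 0.64 without wild type 2, and -2.23 (edgeR adjusted p = 0.0353) without wild type 1. CG30031 had 5.38 and 8.92 CPM in RNAi libraries and 5.46 and 13.6 CPM in wild type, a log2 fold change of -0.40 (SE 0.53), and 0.41 without wild type 2. Summed into 1 row, the 4 copies had 8.26 and 14.1 CPM in RNAi 1 and 2, against 7.68 and 35.7 CPM in wild type 1 and 2. Their summed log2 fold change was -0.94, with an edgeR adjusted p of 1.0.

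The genes whose pattern over the 4 libraries was nearest to alphaTry were CG30339, CG8012 and CG31266. Likeness was the Euclidean distance between log2 CPM values centred over the libraries, among 2277 other genes averaging 50 CPM or more, and the distances were 0.0970, 0.114 and 0.118. CG30339 had 71.7 and 53.5 CPM in RNAi libraries and 102 and 81.0 CPM in wild type. CG8012 had 123 and 95.1 CPM in RNAi libraries and 165 and 126 CPM in wild type, and CG31266 had 157 and 122 CPM in RNAi libraries and 198 and 185 CPM in wild type. Among the members, iotaTry was nearest to alphaTry, at rank 35 (distance 0.258), while betaTry was at rank 236 and thetaTry at rank 717. With 4 libraries such distances are a description.

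Of 39 other trypsin-like and gut serine protease genes in the table, 27 were tested. Without the set term edgeR and DESeq2 both called 0, where they called 0.125% and 0.955% of all genes. Of the 27, 4 had an unadjusted edgeR p under 0.05, beside 3.83% of all genes. The median log2 fold change of the 27 was 0.076, with 12 negative and 15 positive. With the set as a term 2 were higher and 3 lower, 5 of 27 beside the 7.1% of all genes that passed. DESeq2 then called 1 higher and 5 lower, beside 4.24% of all genes in either direction. CG11911 had 371 and 658 CPM in RNAi libraries and 1536 and 1586 CPM in wild type, and with the set term its log2 fold change was -1.66 (SE 0.22, edgeR adjusted p = 1.51e-06). CG11912 was lower with -1.34 (SE 0.18, edgeR adjusted p = 1.58e-06). yip7, another serine protease gene, had 12652 and 14265 CPM in RNAi libraries and 24655 and 31415 CPM in wild type, with -1.05 (SE 0.25, edgeR adjusted p = 0.00365). sphe, known as spheroide in Toll signalling, was higher with 0.79 (SE 0.19, edgeR adjusted p = 0.00466). The other higher gene, CG6462, was named after its values were seen and had 0.78 (SE 0.23, edgeR adjusted p = 0.0328). The CPM values did not overlap between genotypes in any of these 5 genes, which were picked for passing on the same counts. Over all tested genes 12.2% had RNAi lower without overlap, and 12.0% had RNAi higher.

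Regulators of digestive enzyme genes were also read from a list. It held transcription factors of the gut and secretory pathway and genes of TGF-beta signalling. All 16 found in the table were tested, with a median log2 fold change of -0.080. Without the set term edgeR and DESeq2 both called 0, where they called 0.125% and 0.955% of all genes. At an unadjusted edgeR p under 0.05 there were 0 of 16, beside 3.83% of all genes. With the set as a term daw was lower, 1 of 16 beside the 3.65% of all genes that were lower. DESeq2 with the set term called 0, beside 4.24% of all genes in either direction. daw encodes dawdle, an activin-like ligand, and had 3.30 and 14.1 CPM in RNAi 1 and 2, against 10.03 and 19.7 CPM in wild type 1 and 2. Its log2 fold change was -1.01 (SE 0.24, edgeR adjusted p = 0.0140) with the set term. sug, which encodes the sugar-responsive transcription factor sugarbabe, had 55.4 and 116 CPM in RNAi 1 and 2, against 118 and 116 CPM in wild type 1 and 2. RNAi 1 was the one library that stood apart, and the log2 fold change without the set term was -0.46 (SE 0.45).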

How the data were processed

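Per the labels' protocols, total RNA of dissected guts was made into standard Illumina libraries. The authors deposited unnormalized read counts, 1 column per library. STAR, FastQC and the BDGP6 assembly stand in the submitters' processing notes without versions; how reads were counted, with which strand setting and gene models, is not stated in the sources used here. A symbol was found for 17405 of 17510 identifiers. Positions and lengths came from a BDGP6 annotation.

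The tests ran in edgeR 4.0.16 under R 4.3.3 (filterByExpr, TMM, robust quasi-likelihood test over all 4 libraries and 9637 genes, Benjamini-Hochberg threshold 0.05). SE is the absolute log2 fold change over the root of F. The procedure was tested on simulated counts. Alternatives were other scalings, filters, each library left out, DESeq2 1.42.0, a library set term and neighbouring copies summed. Summing joined alphaTry with betaTry, and gammaTry with deltaTry, CG30025 and CG30031. Sequence identity between the joined genes was not computed here. The set term with summed copies was added after seeing the data.

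Members and lists were chosen with earlier results of these data known. Of 120 list names 115 were matched; esg, Dl, nos, Med and Mio were not analysed here. All members and Cftr were named, as were up to 4 called genes (or 2 with the smallest p) of each further list and the 3 genes nearest to alphaTry. The further marker lists, with summed CPM in RNAi 1, RNAi 2, wild type 1 and wild type 2, were stem cell (20.1, 15.9, 15.6 and 11.0), enteroendocrine (287, 292, 292 and 273), fat body (186, 381, 197 and 204), haemocyte (6.79, 5.05, 1.35 and 2.33), male germline (0.609, 0, 0.104 and 0.090), female germline (1.28, 0.367, 0.277 and 0.449) and neuron (12.5, 13.5, 12.7 and 13.7).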

Additional observations from a re-analysis of the deposited data

How the results depend on the processing

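The number of trypsin genes called was 0 in edgeR with TMM and stayed 0 with RLE factors, library size alone, the members left out of the scaling, a minimum mean of 5 CPM, no count filter, DESeq2 and summed copies. It was 1 with the library set as a term, in edgeR, in DESeq2 and with summed copies, and between 0 and 1 when a library was left out, the 1 being deltaTry without wild type 1. For the other proteases, 0 without the set term, the number was 5 with the set term, 6 with it in DESeq2, and between 0 and 1 when a library was left out. For the regulators, 0 without the set term, it was 1 with the set term in edgeR. The trypsin share of counts differed by -0.80 percentage points, by -0.80 over nuclear counts, and by between -1.14 and -0.46 when a library was left out. Signs of single members turned for deltaTry (1.41 without wild type 2; between -2.78 and 1.41 over the left-out libraries) and etaTry (-0.098 without RNAi 1 and -0.038 without wild type 2; between -0.098 and 0.31), and the cause was not tested. Library size alone moved the median of all genes by 0.098 on the log2 scale. zetaTry ranged from -1.15 to -0.28 and alphaTry from -0.67 to -0.36 over all fits. deltaTry could not be fitted with a minimum mean of 5 CPM. The labels give no replicate numbers to pair libraries by; the fit with the library set pairs them by sets read from the counts. Leaving out a library was not run with the set term, as nothing then remains to estimate the spread. Otherwise the lone library of a genotype was assumed to vary as the other genotype did. gammaTry and deltaTry had few assigned reads. deltaTry had its highest count, 121, in wild type 2, the library with the lowest total. The part of depth and of read assignment in these low counts was not tested.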
